A study of Mus musculus with 2 samples.

Results

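Cells of the day 3 organoids with high levels of genes used at entry into S phase were described, 150 of 798 day 3 cells and of 1863 cells in all. They were chosen by a score per cell on the authors' log2 values. The score is the mean over 8 genes of the G1/S step (Ccne1, Ccne2, Ung, E2f1, Cdt1, Cdc6, Uhrf1 and Dtl) minus the mean over 6 genes of mitosis (Ube2c, Cenpf, Aurka, Ccnb1, Prc1 and Plk1), and the 150 cells with the highest score were taken. They are called S-entry cells below. Since the score is made of measured values, the levels of these 14 genes, and of any gene that moves with them, follow from the choice of cells and are given as a description.

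The cells came from intestinal organoids, self-organising epithelial cultures, grown from wild-type C57BL/6 mice of 10 weeks. Droplet-based 3-prime RNA sequencing with unique molecular identifiers (UMIs) gave 1 library at day 3 and 1 library at day 5. Both cultures had medium with EGF, Noggin and R-spondin, and with Wnt3a-conditioned medium (20%) and Y-27632 (10 µM), which blocks ROCK, until day 3. CHIR99021 (3 µM), which blocks GSK3, was present until day 1. From day 3 to day 5 these additions were absent, so that time in culture and medium differ together. With 1 library per day and cells that are not replicates, no test was possible, no p-value is given, and every interval covers counting error only.

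A cell commits to a new round of division in late G1, when cyclin E with CDK2 inactivates the retinoblastoma proteins and frees the E2F transcription factors. Before that, CDC6 and CDT1 load the ring-shaped MCM helicase onto replication origins, and in S phase CDC7 with DBF4 and CDK2 start these helicases. Genes of mitosis are switched on later, in G2, in part through a promoter element called the CHR. In the gut, such divisions take place in the crypt, in stem cells and in their transit-amplifying daughters.

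The S-entry cells held 4828848 UMIs, with a lowest of 17601, a median of 27923 and a highest of 77901 UMIs per cell. The other 648 day 3 cells held 23935185 UMIs, with a lowest of 17626, a median of 33012.5 and a highest of 119743 UMIs per cell. The median number of detected genes was 4731 in S-entry cells and 5081.5 in the other cells, and the median mitochondrial share was 4.23% in S-entry cells and 4.56% in the others. Cells with over 2 times the day 3 median of UMIs, which may hold doublets, numbered 2 among the S-entry cells and 41 among the others. Of 6 markers of immune, stromal and endothelial cells that were measured, Cd14 had 419 UMIs in the whole day 3 library and Cd68, Vim, Pecam1, Lyz2 and Ccl5 had 0 to 44. Cd14 was also the only member of that list tested, at a log2 ratio of 0.40 that was not past the fold defined below, and Ptprc, Cd3e, Col1a1, Col3a1, Pdgfra and Cdh5 were not analysed here. The part of depth in the results was not tested beyond the thinned counts given with the alternatives.

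The score placed the S-entry cells at the edge of a spread with no gap. Its first part, the mean log2 value of the 8 G1/S genes, had a lowest of 0.298, a median of 1.16 and a highest of 1.82 in S-entry cells, against 0, 0.363 and 1.31 in the other cells. Its second part, the mean of the 6 mitotic genes, had a lowest of 0, a median of 0.462 and a highest of 1.04 in S-entry cells, against 0, 1.49 and 3.05 in the others. The cells just inside the limit scored 0.283, 0.282 and 0.281, and those just outside scored 0.279, 0.278 and 0.274. The limit is thus a cut through a continuous range, and 73 of the other cells also scored above 0. Of the S-entry cells, 4 had a first part below the median of all day 3 cells and passed because their second part was at or near 0. These 4 cells hold low levels of both gene groups, so the score alone does not place them at the G1/S step.

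**Figure D1:**
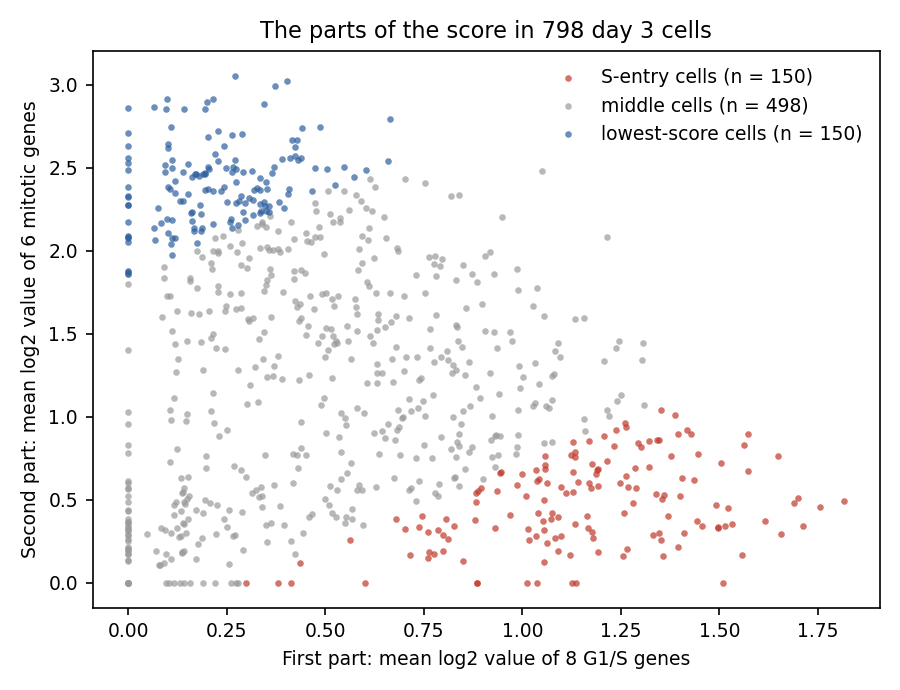
Each point is 1 of the 798 day 3 cells, with the mean authors' log2 value of the 8 G1/S genes on the x axis and that of the 6 mitotic genes on the y axis. The 150 S-entry cells (red) have a median of 1.16 on the x axis and 0.462 on the y axis and border the 498 middle cells (grey) without a gap, and the 150 cells with the lowest score (blue) lie at the mitotic end.

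Levels below are UMIs summed over the cells of a group and scaled to 1000000 UMIs (CPM), with exact Poisson 95% intervals in brackets. A log2 ratio is S-entry cells over the other 648 day 3 cells unless another group is named, with 0.5 UMI added to each sum. A gene was tested where it had at least 100 UMIs in the day 3 library. It was called higher or lower, or past the fold, at a ratio of at least 1.5 in either direction with intervals that did not overlap. Of 9458 genes tested, 165 were called higher, 1.74%, and 338 were called lower, 3.57%, and the median log2 ratio of all of them was close to 0. The 14 score genes are among these counts, all 8 added genes as higher and all 6 subtracted genes as lower, as the rule fixes.

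Among the 8 G1/S genes, the E cyclins stood furthest apart. Ccne1 (ENSMUSG00000002068), cyclin E1, had 50.1 CPM (44.0 to 56.8) in S-entry cells and 11.3 CPM (10.0 to 12.8) in the other cells. Single cells held 0 to 8 UMIs of Ccne1 with a median of 1 among S-entry cells, and 0 to 7 with a median of 0 among the others, so that the groups overlapped cell by cell. Ccne2 (ENSMUSG00000028212), cyclin E2, had 29.6 CPM (24.96 to 34.88) in S-entry cells and 5.64 CPM (4.73 to 6.68) in the others, a log2 ratio of 2.39. Ung, the uracil-DNA glycosylase that removes uracil from new DNA, had 91.3 CPM (83.0 to 100.3) in S-entry cells and 20.8 CPM (19.0 to 22.7) in the others. Cdc6 had 36.5 CPM in S-entry cells and 8.86 CPM in the others, and its partner in helicase loading, Cdt1, had 80.6 CPM in S-entry cells and 35.1 CPM in the others. E2f1, an activating E2F factor, had 40.8 CPM in S-entry cells and 13.5 CPM in the others. Uhrf1, which guides the maintenance methyltransferase to replicated DNA, had 113 CPM in S-entry cells and 48.1 CPM in the others. Dtl, the receptor subunit of the ubiquitin ligase that removes CDT1 in S phase, had 60.7 CPM in S-entry cells and 24.8 CPM in the others.

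Each of these genes was also left out of its own selection. The score was then built from the other 7 added genes and the same 6 subtracted genes. Of the 150 cells chosen each time, 138 to 143 were S-entry cells. The cells were thus largely the same, so the values are a description and not independent support. The gene left out was past the fold each time. Its log2 ratio then ran from 1.04 for Uhrf1 to 2.18 for Ccne2. Ccne1 stood at 46.6 CPM in cells chosen without it, against 12.0 CPM in the rest, a log2 ratio of 1.95. Cdc6 stood at 32.5 CPM in cells chosen without it, against 9.65 CPM in the rest, a log2 ratio of 1.76.

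The promoters of the genes on either side of the score differ in short motifs. Promoter windows of RefSeq (build GRCm38.p6), from 250 bases before to 50 bases after each start, were found for 7 of the 8 added genes (Ccne2 had no entry) and all 6 subtracted genes. Windows were searched on both strands for 4 spellings of the E2F site, TTTCGCGC, TTTGGCGC, TTTCCCGC and TTTGCCGC, and for the CHR, TTTGAA. No spelling contains another, and a window with several matches counts as 1. An E2F motif was present in 4 of 7 added genes, and a CHR in 5 of 6 subtracted genes. The stretches around a motif of 3 added genes and of the helicase gene Mcm3 are shown 5′ to 3′ on the gene's strand, with the E2F motif or its reverse complement in capitals.

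Cdc6: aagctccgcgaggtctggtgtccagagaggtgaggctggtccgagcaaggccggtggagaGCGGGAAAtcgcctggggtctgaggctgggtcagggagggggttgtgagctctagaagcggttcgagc
Uhrf1: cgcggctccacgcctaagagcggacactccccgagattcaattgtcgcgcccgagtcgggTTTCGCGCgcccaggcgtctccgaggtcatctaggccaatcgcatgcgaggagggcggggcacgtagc
Dtl: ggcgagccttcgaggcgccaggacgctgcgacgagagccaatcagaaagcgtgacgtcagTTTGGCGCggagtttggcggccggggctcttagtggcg
Mcm3: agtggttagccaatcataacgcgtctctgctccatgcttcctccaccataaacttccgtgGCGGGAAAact

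The Cdc6 stretch is chr11:98907953-98908080 on the plus strand, and its motif begins 138 bases before the RefSeq start. Distances here are from the RefSeq starts of the windows. The Uhrf1 stretch is chr17:56304068-56304195 on the plus strand, with the motif 185 bases before the start. The Dtl stretch is chr1:191575515-191575612 on the minus strand, with the motif 8 bases before the start. The Mcm3 stretch is chr1:20820283-20820353 on the minus strand, with the motif beginning 20 bases into the transcript. Per GENCODE M21, the Uhrf1 stretch overlaps no exon, and the others hold 29 or 30 exonic bases each. GENCODE M21 places the gene starts of Cdc6 and Uhrf1 at 98907801 and 56303321, so both stretches lie within those genes.

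For the mitotic side of the score, the stretches of 3 subtracted genes are shown in the same way, with the CHR or its reverse complement in capitals.

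Ube2c: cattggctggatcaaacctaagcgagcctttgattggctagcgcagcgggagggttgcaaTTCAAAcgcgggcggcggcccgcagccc
Cenpf: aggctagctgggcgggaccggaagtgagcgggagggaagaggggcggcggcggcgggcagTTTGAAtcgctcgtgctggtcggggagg
Prc1: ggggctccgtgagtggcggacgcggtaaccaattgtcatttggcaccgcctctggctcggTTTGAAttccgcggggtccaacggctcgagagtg

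These lie at chr2:164769840-164769927 on the plus strand for Ube2c, at chr1:189688057-189688144 on the minus strand for Cenpf and at chr7:80294386-80294479 on the plus strand for Prc1. The CHR begins 29 bases before the RefSeq start in Ube2c, 3 bases after it in Cenpf and 5 bases before it in Prc1. The levels that go with these promoters were 67.9 CPM of Ube2c in S-entry cells and 371 CPM in the other cells, 13.3 CPM of Cenpf in S-entry cells and 121 CPM in the others, and 10.8 CPM of Prc1 in S-entry cells and 59.6 CPM in the others. Ube2c works with the ubiquitin ligase that ends mitosis, Cenpf is a kinetochore protein, and Prc1 bundles the microtubules of the late spindle.

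Outside the score the shares of genes with a motif also differed between the genes called higher and lower. An E2F motif was present in 22.8% of genes called higher (29 of 127 with a promoter window) and in 2.62% of genes called lower (7 of 267), against 5.16% of all 7537 tested genes with a window and 2.61% of all 27025 genes in the table. The CHR was present in 11.8% of genes called higher (15 of 127) and in 31.5% of genes called lower (84 of 267), against 14.3% of the tested genes and 20.2% of all genes. Of the 6 DNA replication lists described next, nucleotide supply had an E2F motif in 0 of 13 windows and the other 5 lists in 21.4% (repair and checkpoint) to 53.8% (licensing). A match describes letters in a window and shows neither binding nor use of the site.

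**Figure D2:**
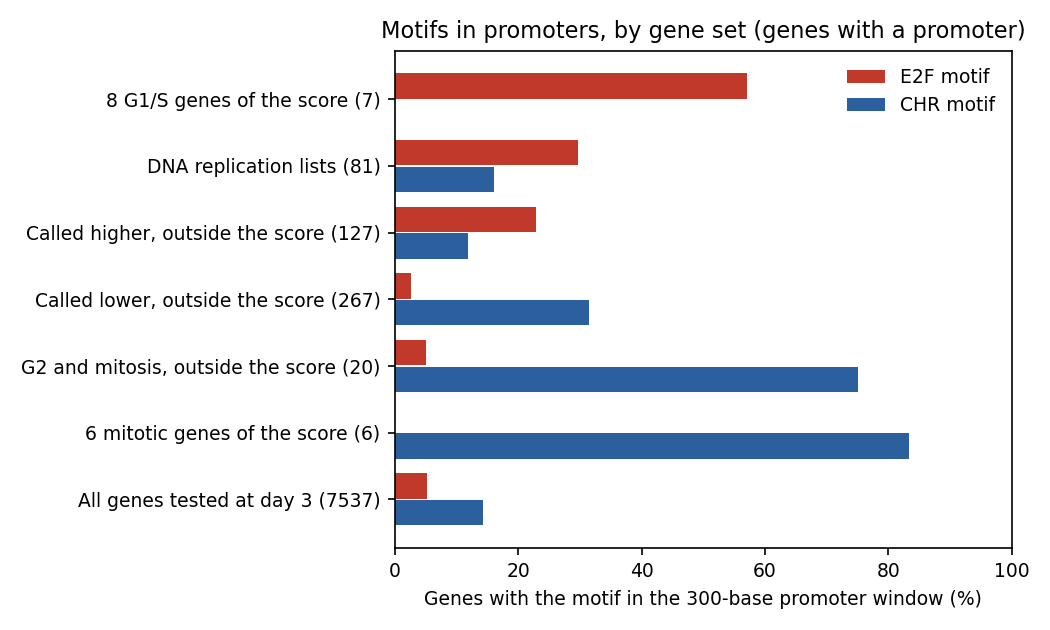
Bars give the percent of genes with an E2F motif (red) or a CHR (blue) in the promoter window, for gene sets listed with the number of genes that have a window. The 8 G1/S genes, the 6 DNA replication lists pooled (29.6%) and the genes called higher have more E2F motifs than the 5.16% of all tested genes, and the mitotic sets have more CHR motifs than the 14.3% of all tested genes.

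Genes that copy DNA were higher in S-entry cells as a group. In 6 lists of DNA replication genes outside the score, 46 of 99 tested members of 100 were called higher and 1 was called lower, with a median log2 ratio of 0.56. The background was 1.74% called higher and a median close to 0 over all genes. Since cells were chosen by genes that act beside these, the count describes how widely the programme extends and is not independent support for it. Summed over the 100 genes, single S-entry cells held 1623 to 9766 CPM with a median of 6460 CPM, and the other cells held 558 to 10041 CPM with a median of 4583 CPM, so that the groups overlapped.

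Origin licensing, the loading of the helicase, had 8 of 15 members called higher and none lower, with a median log2 ratio of 0.66. Mcm4 had 63.2 CPM (56.3 to 70.7) in S-entry cells and 26.7 CPM (24.6 to 28.8) in the others, a log2 ratio of 1.25. Mcm3 had 102 CPM (93.3 to 111.5) in S-entry cells and 49.5 CPM (46.7 to 52.4) in the others, a log2 ratio of 1.05, and single cells held 0 to 10 UMIs with a median of 3 among S-entry cells and 0 to 15 with a median of 1 among the others. All 6 helicase subunits, Mcm2 to Mcm7, were past the fold, from 0.65 for Mcm7 to 1.25 for Mcm4. Orc6 and Mcm10 were also higher, at 0.97 and 0.66. The origin recognition subunits Orc3 and Orc5 were not past the fold, at log2 ratios of -0.23 and -0.13. Orc3 had 11.80 CPM in S-entry cells and 13.95 CPM in the others.

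Origin firing and fork protection had 10 of 16 members higher and 1 lower, with a median of 0.80. Donson, a replisome factor, had 19.5 CPM in S-entry cells and 9.28 CPM in the others, a log2 ratio of 1.07. Clspn, claspin, the adaptor of the replication checkpoint, had 44.5 CPM (38.8 to 50.9) in S-entry cells and 21.6 CPM (19.8 to 23.6) in the others. Cdc45, which turns the MCM ring into an active helicase, stood at 15.5 CPM in S-entry cells and 8.15 CPM in the others. The exception was Dbf4, the activating subunit of the CDC7 kinase, with 33.3 CPM (28.4 to 38.9) in S-entry cells and 60.9 CPM (57.8 to 64.1) in the others, a log2 ratio of -0.87. Its kinase Cdc7 was higher, with 12.6 CPM in S-entry cells and 7.39 CPM in the others, so the subunits of 1 complex stood on opposite sides of this comparison. Against the cells with the lowest score the log2 ratio of Dbf4 was -1.39, and against the middle cells -0.66. In bands of 50 cells ordered by score, Dbf4 had 22.8, 33.9 and 42.5 CPM in the S-entry cells. Bands 4 to 8 held 33.2 to 41.7 CPM of Dbf4, and the last band, at the mitotic end, held 97.1 CPM. The S-entry bands thus overlapped the next cells in Dbf4.

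DNA synthesis had 10 of 26 members higher and none lower, with a median of 0.40. Rpa2, a subunit of the protein that coats single-stranded DNA, had 75.0 CPM (67.4 to 83.1) in S-entry cells and 32.8 CPM (30.5 to 35.2) in the others, a log2 ratio of 1.19. Dscc1 and Rfc3, subunits of clamp loaders, stood at log2 ratios of 1.07 and 1.03, and Pcna, the sliding clamp they load, at 0.69. Pcna had 147 CPM (136.8 to 158.7) in S-entry cells and 91.5 CPM (87.7 to 95.4) in the others. Pola1, the catalytic subunit of the primase-coupled polymerase, was not past the fold, with 15.32 CPM in S-entry cells and 18.01 CPM in the others.

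Nucleotide supply had 5 of 14 members higher and none lower, with a median of 0.29. Dck, deoxycytidine kinase, and Rrm2, the regulated subunit of ribonucleotide reductase, stood at log2 ratios of 0.98 and 0.78. Rrm2 had 127 CPM (117 to 138) in S-entry cells and 74.0 CPM (70.6 to 77.6) in the others. Rrm1, the large subunit of the same enzyme, was not past the fold, with 75.0 CPM in S-entry cells and 68.4 CPM in the others. Tk1, thymidine kinase, was at 65.0 CPM in S-entry cells and 65.1 CPM in the others.

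Copying of chromatin had 5 of 11 members higher and none lower, with a median of 0.56. Hells, a chromatin remodeller that acts with DNA methylation, had 204 CPM (192 to 217) in S-entry cells and 101 CPM (96.9 to 105.0) in the others, and single cells held 0 to 30 UMIs with a median of 6 among S-entry cells and 0 to 25 with a median of 3 among the others. Chaf1b, a subunit of the histone chaperone that follows the fork, had 33.8 CPM in S-entry cells and 14.9 CPM in the others, a log2 ratio of 1.18. Slbp, which binds the stem-loop of histone messages, stood at 142 CPM in S-entry cells and 77.5 CPM in the others. Repair and checkpoint genes had 8 of 17 tested members higher and none lower, with a median of 0.59, led by Chek1 at 1.15, the checkpoint kinase of stalled forks. Mms22l, a fork repair factor, and Msh6, a mismatch recognition protein, followed at 0.96 and 0.95.

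**Figure D3:**
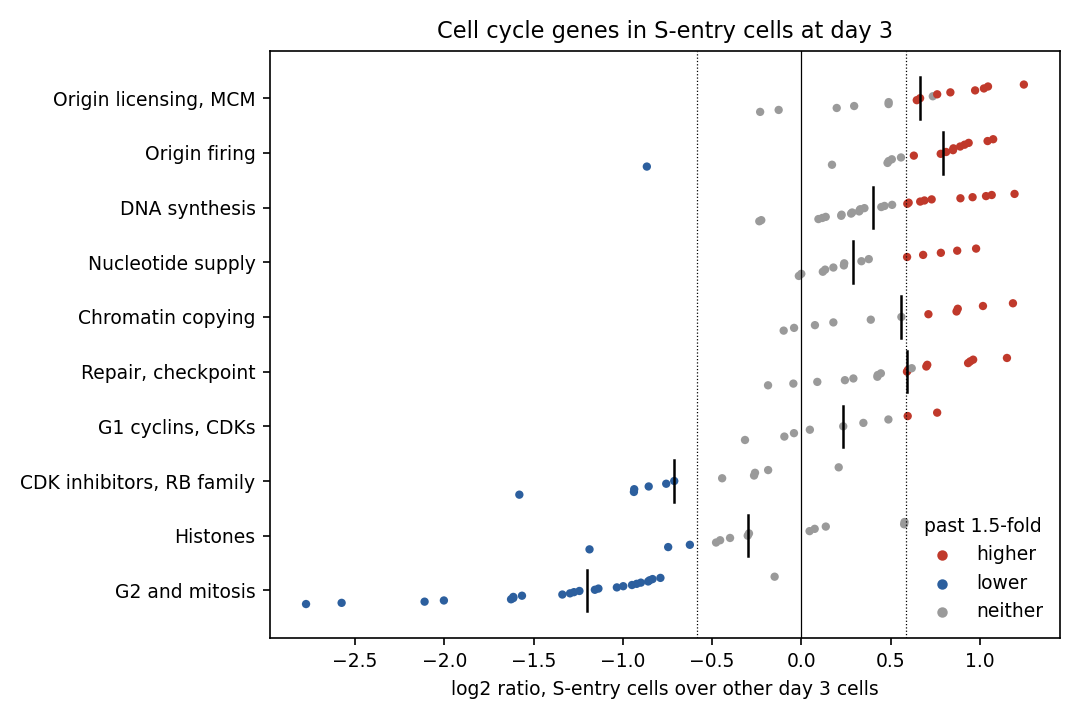
Each point is 1 tested gene of a list at its log2 ratio of S-entry cells over the other day 3 cells, red where called higher, blue where called lower and grey otherwise. Black ticks are list medians, and dotted lines mark the 1.5-fold limits. The 6 DNA replication lists have medians from 0.29 to 0.80 with Dbf4 alone called lower, and the G2 and mitosis list has a median of -1.20.

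Of the genes outside the score, the 10 most like its first part over the 798 day 3 cells were all from these lists. Spearman's rho was 0.71 for Hells, 0.57 for both Mcm3 and Slbp, 0.54 for Tipin, 0.53 for Rpa2 and Mcm5, 0.51 for Mcm6 and Mcm2, 0.50 for Mcm4 and 0.49 for Dut. The cells share a library and differ in depth, so these are descriptions over cells and not over independent samples.

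Among the 15 genes outside the score with the highest log2 ratio, under a minimum of 30 CPM in S-entry cells and 10 UMIs in the others, 9 were members of the replication lists (Mcm4, Rpa2, Chaf1b, Mcm3, Clspn, Rfc3, Mcm2, Hells and Orc6). Tcf19, a gene first known for its rise in late G1, led with 38.9 CPM (33.6 to 44.9) in S-entry cells and 15.0 CPM (13.5 to 16.7) in the others, a log2 ratio of 1.37. Casp8ap2, which takes part in histone message processing, stood at 1.07, and Rnf168, a ubiquitin ligase of the DNA break response, at 1.08. Gpr180 and Arl6ip6 stood at 1.19 and 0.97. The remaining gene was Lyz1, the Paneth lysozyme, with 52.0 CPM in S-entry cells and 21.6 CPM in the others, but 1 cell held 190 of the 251 UMIs of the S-entry cells. Without the cell that held most, the log2 ratio of Lyz1 was -0.76 in place of 1.27.

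Cell cycle controls upstream of S phase were taken as activators and inhibitors. Of 9 tested G1 cyclins and kinases, Skp2, the ubiquitin ligase subunit that removes CDK inhibitors, and Cdk2, the partner of cyclin E, were called higher, at 0.76 and 0.60, and none was lower. Without the S-entry cell with the highest Cdk2 count, Cdk2 stood at 0.56, under 1.5-fold. Ccnd1, cyclin D1, had 158 CPM (147 to 170) in S-entry cells and 153 CPM (148 to 158) in the others, and Ccnd2, cyclin D2, had 855 CPM in S-entry cells and 880 CPM in the others. Of 11 tested CDK inhibitors, cyclin G genes and retinoblastoma family genes, 6 were called lower and none higher, with a median of -0.71 beside the background of 3.57% called lower. Under the same rule at day 5, 7 of the 9 activators were called higher, with a median of 0.77, and 3 of 10 tested inhibitors lower, with a median of -0.33, and the difference between the lists was tested at neither day. Cdkn2d, an inhibitor of the cyclin D kinases, had 4.35 CPM (2.69 to 6.65) in S-entry cells and 13.3 CPM (11.9 to 14.8) in the others. In bands of 50 cells ordered by score, it stood at 3.26, 4.31 and 5.39 CPM in the S-entry cells. Bands 4 to 8 held 4.15 to 6.12 CPM of Cdkn2d, and the last band, at the mitotic end, held 33.8 CPM. Its level in S-entry cells was thus near that of the next cells. Cdkn1a, the p53-dependent inhibitor, had 54.3 CPM (47.9 to 61.2) in S-entry cells and 89.0 CPM (85.3 to 92.9) in the others, with a median of 1 UMI per cell in both groups and a highest of 24 UMIs among S-entry cells and 47 among the others. Cdkn2b stood at -0.94, and Cdkn1b, an inhibitor of the cyclin E kinase, was not past the fold at -0.19. Of the E2F, MYB and FOXM1 families, the repressors E2f7 and E2f8 were higher, at 1.24 and 0.60 (0.55 for E2f8 without its highest cell), and Foxm1, the activator of mitotic genes, was lower at -0.85. E2f7 had 14.7 CPM in S-entry cells and 6.27 CPM in the others. Foxm1 had 7.16, 11.7 and 9.59 CPM in the S-entry bands and 6.73 to 13.1 CPM in bands 4 to 8, so these overlapped.

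Genes of G2 and mitosis outside the score were lower in S-entry cells, 23 of 24 past the fold, with a median of -1.20. The score subtracts genes of this programme, so the direction follows from the choice. Ordered by score in bands of 50 cells, this list summed to 785, 1041 and 1109 CPM in the S-entry cells. Bands 4 to 7 held 893 to 1003 CPM, and the last band, at the mitotic end, held 3555 CPM. The S-entry bands thus overlapped the next cells in this list. Nusap1, a spindle protein, had 9.73 CPM (7.15 to 12.9) in S-entry cells and 67.3 CPM (64.0 to 70.6) in the others, a log2 ratio of -2.77, and single cells held at most 2 UMIs among S-entry cells and at most 13 among the others. Cenpe, a kinetochore motor, Tpx2, a spindle assembly factor, and Hmmr, a microtubule-binding protein, stood at -2.57, -2.11 and -2.00. Mki67, the proliferation antigen, was lower by less, with 73.1 CPM in S-entry cells and 150 CPM in the others, and Top2a, which untangles chromosomes, had 130 CPM in S-entry cells and 243 CPM in the others. Ccna2, cyclin A2, which acts in both S phase and G2, had 68.8 CPM in S-entry cells and 125 CPM in the others. The exception was Ccnb2, cyclin B2, with 75.0 CPM in S-entry cells and 83.3 CPM in the others. With a minimum of 30 CPM in the group that was higher and of 10 UMIs in the one that was lower, the 15 lowest genes also held Knl1, Ckap5, Kif11, Aurkb, Spc25 and Racgap1, which act at the spindle, the kinetochore or the cleavage furrow, from -1.68 for the kinetochore scaffold Knl1 to -1.34 for Racgap1. The nuclear import receptor gene Kpna2 and Arl6ip1 stood at -1.64 and -1.30.

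Histone genes did not mark the S-entry cells. None of 13 tested was called higher and 3 were called lower, with a median of -0.30. Hist1h2ap had 673 CPM (651 to 697) in S-entry cells and 888 CPM (877 to 900) in the others. Over the middle cells alone its log2 ratio was -0.17, and over the cells with the lowest score -0.97. H2afx, the histone variant of the DNA damage response, was lower at -1.19. Its level was 52.7, 63.4 and 61.7 CPM in the S-entry bands, 47.7 to 59.8 CPM in bands 4 to 7 and 280 CPM in the last. Most replication-dependent histone messages carry no poly(A) tail, on which 3-prime libraries usually rely, and near-identical members of this family may share reads.

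The cells called S-entry thus carried the G1/S genes of the rule and, outside it, helicase, clamp and chaperone genes, together with few mitotic messages. DNA content and nucleotide uptake were not measured, and histone messages without a poly(A) tail may be missed here, so replication itself was not tested. The label rests on genes of the G1/S step.

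The 648 other cells include both mitotic cells and cells low in both parts of the score, so they were also split by score. The split does not separate these 2 kinds fully. The second part reached 2.4763 in the middle cells, above the lowest value of 1.8595 in the lowest-score cells. Against the 150 cells with the lowest score, which is the mitotic end, 293 genes were called higher, 3.10%, and 294 lower, 3.11%, of which the direction of the mitotic genes follows from the rule. The replication lists had 45 of 99 members higher there and 1 lower. Against the 498 middle cells, a comparison added after the values were seen, 145 genes were called higher, 1.53%, and 348 lower, 3.68%, and the replication lists had 43 of 99 higher and 1 lower. These comparisons share the S-entry cells, and the one against the middle cells is not free of cells high in mitotic genes. Mcm4 stood at 1.90 over the lowest-score cells and 1.09 over the middle cells, and Hells at 1.48 over the lowest-score cells and 0.90 over the middle cells.

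Along the score, in bands of 50 cells from the highest, the licensing genes summed to 902, 945 and 902 CPM in the 3 bands of S-entry cells, 697 CPM in the 4th band, 473 CPM in the 7th band, 607 to 656 CPM in bands 8 to 11 and 470 CPM in the last. Mcm4 was level within the S-entry cells, at 63.2, 63.4 and 62.9 CPM, while Ccne1, which the score uses, stood at 63.2, 50.5 and 37.7 CPM. The G2 and mitosis list outside the score summed to 785, 1041 and 1109 CPM in the S-entry bands, stayed at 893 to 1003 CPM over the next 4 bands and reached 3555 CPM in the last. Histone genes stood at 2828, 3220 and 2908 CPM in the S-entry bands, at 2042 CPM in the 6th band and at 4379 CPM in the last. Bands 5 to 7, past the first cells below the limit, were thus under the level of all day 3 cells in all 3 of these lists, at 0.77 to 0.87 times for licensing, 0.49 to 0.54 times for mitosis and 0.66 to 0.74 times for histones.

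**Figure D4:**
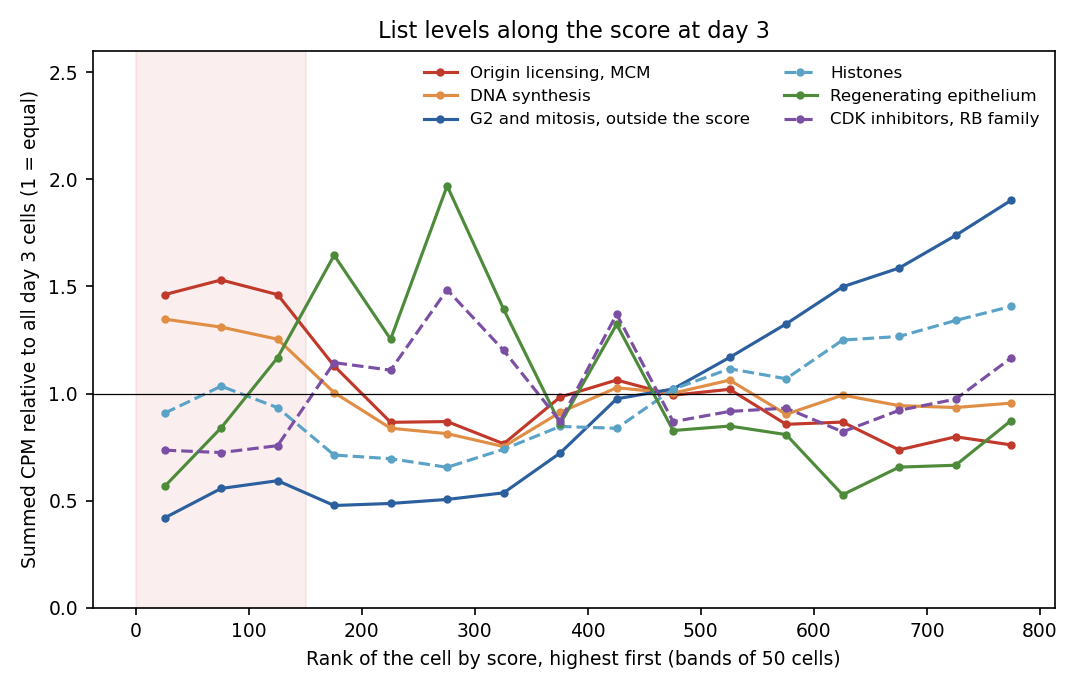
Cells are ordered by score on the x axis, highest first, in 16 bands of 50 cells (the last of 48), and the y axis gives the summed CPM of a gene list relative to all day 3 cells, where 1 means equal. The S-entry cells (shaded) hold 1.46 to 1.53 times the level of licensing genes, the genes of regenerating epithelium reach 1.97 times in the 6th band, and the mitotic list reaches 1.90 times in the last band.

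S-entry cells also differed from the other cells in genes of differentiation and stress. Of 13 tested enterocyte genes, 7 were lower and none higher, with a median of -0.96. Fabp1, the liver-type fatty acid binding protein of absorptive cells, had 33.8 CPM (28.8 to 39.4) in S-entry cells and 310 CPM (302 to 317) in the others, a log2 ratio of -3.19. Both groups had a median of 1 UMI per cell, and the highest was 20 UMIs among S-entry cells and 1742 among the others, so that single other cells held far more than any S-entry cell. The highest of them held 23.5% of the UMIs of the others, and without it the log2 ratio was -2.81. Along the score Fabp1 was at 53.4, 33.3 and 16.2 CPM in the S-entry bands, at 471 to 918 CPM in bands 4 to 9 and at 30.3 to 116 CPM in the bands after these. Over the cells with the lowest score, Fabp1 had a log2 ratio of -1.13, and 2 enterocyte genes were lower and 1 was higher. Sis, the sucrase of the brush border, and Apoa4, an apolipoprotein, stood at -1.98 and -2.38 over all the other cells.

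Hypoxia genes had 8 of 11 tested members lower and none higher, with a median of -0.73. Ndrg1, a stress and differentiation gene, had 22.8 CPM (18.7 to 27.5) in S-entry cells and 81.3 CPM (77.7 to 85.0) in the others, and Ddit4, an inhibitor of mTOR signalling, stood at -0.95. Over the lowest-score cells 1 of the 11 was lower. p53 targets had 3 of 10 lower and none higher, with a median of -0.40. Over the lowest-score cells none of the 10 was past the fold in either direction, with a median of 0.14. Trp53inp1 stood at -1.38 over all the other cells, but at 0.22 with 200 cells taken, and Mdm2, the ligase that removes p53, stood at -0.59 (-0.51 without its highest cell). The smaller depth of the S-entry cells, a median of 27923 against 33012.5 UMIs per cell in the others, runs beside all of these values.

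Most stem cell genes were not past the fold. Of 15 tested, Ascl2, a transcription factor of Lgr5 stem cells, and Gkn3 were called higher, at 0.70 and 0.67, and none was lower, with a median of 0.16. For Gkn3, 10.0% of the UMIs in S-entry cells came from 1 cell, and without it the log2 ratio was 0.54, under 1.5-fold. Ascl2 had 14.9 CPM (11.7 to 18.8) in S-entry cells and 9.23 CPM (8.06 to 10.5) in the others. Lgr5 itself, the stem cell receptor for R-spondin, had 19.9 CPM (16.1 to 24.3) in S-entry cells and 15.2 CPM (13.7 to 16.9) in the others and was not past the fold. Ephb2 and Ephb3, receptors that position crypt cells, stood at -0.15 and -0.16.

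Genes of regenerating epithelium had 1 of 12 tested members lower and none higher, with a median of -0.27. Over the lowest-score cells the list lay on the other side, with 4 of 12 higher and none lower and a median of 0.33. The member called lower was Lgals3, galectin 3, with 97.5 CPM in S-entry cells and 148 CPM in the others, a log2 ratio of -0.60. Without the other cell with the highest Lgals3 count, the log2 ratio was -0.48, under 1.5-fold. Clu, clusterin, had 342 CPM (325 to 359) in S-entry cells and 371 CPM (364 to 379) in the others, with a median of 2 UMIs per cell in both groups and a highest of 447 UMIs among S-entry cells and 652 among the others. Summed per cell, this list ran from 378 to 31087 CPM with a median of 1534 CPM in S-entry cells, and from 248 to 42108 CPM with a median of 1499 CPM in the others. Cells with very high levels thus occurred on both sides, and the S-entry cells differed among themselves: the sum was 1741, 2581 and 3587 CPM in their 3 bands and 6049 CPM in the 6th band. YAP target genes had 1 of 11 tested higher and 3 lower, with a median of -0.12, and 3 higher and 1 lower over the lowest-score cells, with a median of 0.38. Ccn2 was the one higher over all the other cells, at 0.71, but 1 cell held 46.7% of its UMIs in the S-entry cells and without it the log2 ratio was -0.18. Ankrd1 and Areg, an EGF receptor ligand, were lower, at -1.55 and -0.79, but stood at 0.80 and 0.12, neither of them called, when 200 cells were taken.

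Secretory genes had 1 of 13 tested higher and 4 lower, with a median of -0.44, and 6 higher and 2 lower over the lowest-score cells, with a median of 0.11. The one higher over all the other cells was Lyz1, described above with its single cell. The same cell, the 38th by score, held 1462 of the 2545 UMIs of Defa24, a Paneth defensin, in the S-entry cells, with a first part of 0.885 and none of the 6 mitotic genes. Another, the 41st, held 76 of 150 UMIs of Zg16 and 17 of 36 UMIs of Muc2, both goblet cell genes. No doublet caller was run, so whether these cells are single cells was not tested. Chgb, an endocrine granule protein, and Neurog3, the factor of endocrine commitment, stood at -2.90 and -1.48, and Ghrl, the hormone ghrelin, at -1.34. Of the Chgb UMIs in the other cells, 29.4% came from 1 cell, and of the Ghrl UMIs 41.9%, without which their log2 ratios were -2.40 and -0.56.

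Ribosome biogenesis genes had none of 15 past the fold in either direction, and 14 of the 15 had a log2 ratio above 0, with a median of 0.32. Nolc1, a nucleolar protein, had 143 CPM in S-entry cells and 104 CPM in the others, and Myc, a growth regulator, had 43.5 CPM in S-entry cells and 33.1 CPM in the others.

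The same rule was applied within the day 5 library, where the 150 cells with the highest score were set against the other 915. Their lowest score was 0.170 among the 150 chosen, below the day 3 limit of 0.281, which 80 of 1065 day 5 cells reached. The 150 cells had a median of 15827 UMIs per cell, against 13086 in the other 915. Their first part had a median of 0.515, against 0 in the others, and the median of the second part was 0 in both groups, so that the median other day 5 cell had no UMI of the 8 G1/S genes, and the median cell of both groups had none of the 6 mitotic genes. Of 8161 genes tested, 555 were called higher, 6.80%, and 600 lower, 7.35%. The replication lists had 62 of 76 tested members higher and 1 lower, with a median log2 ratio of 0.98. The lower one was again Dbf4, at -0.72. Mcm4 had 40.9 CPM in the day 5 cells of the rule and 8.05 CPM in the other day 5 cells, a log2 ratio of 2.35. Hells had 119 CPM in the day 5 cells of the rule and 26.7 CPM in the other day 5 cells, a log2 ratio of 2.15.

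Among 7967 genes tested at both days, the day 3 comparison called 107 higher and the day 5 comparison called 547, and 77 were in both, 72.0% of the day 3 genes and 14.1% of the day 5 genes. For genes called lower, 155 were in both, 55.2% of the 281 at day 3 and 30.5% of the 509 at day 5. Over all genes tested at day 5, 6.80% were called higher and 7.35% lower. Both days used the same rule, so score genes, and genes that move with them, are shared through the choice of cells. The 4 genes called in opposite directions at the 2 days, named after their values were seen, were Mdm2, Fzd7, Defa30 and Hpgd. Stem cell genes had 7 of 12 tested higher at day 5, among them Lgr5 with 36.8 CPM in the cells of the rule and 15.1 CPM in the others. Ribosome biogenesis genes had 11 of 15 higher at day 5, and enterocyte genes had 14 of 15 lower. The difference between the days in these counts was not tested, and the groups set against the rule differ: the other day 5 cells have a median of 0 in both parts of the score, while the other day 3 cells have medians of 0.363 and 1.49.

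**Figure D5:**
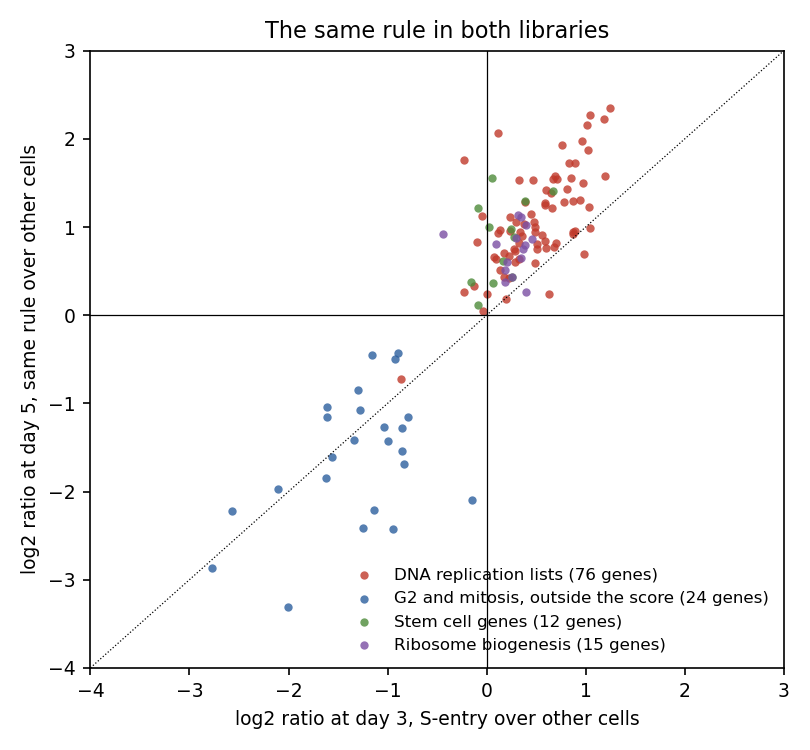
Each point is 1 gene tested at both days, with its log2 ratio of S-entry cells over other cells at day 3 on the x axis and of the cells chosen by the same rule over other cells at day 5 on the y axis; the dotted line marks equal values. Of the 76 replication genes (red), most lie above the line, with Mcm4 at 1.25 and 2.35, and Dbf4 lies below 0 on both axes.

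The score value of the 150th day 3 cell was taken as a fixed limit. It was reached by 80 of 1065 day 5 cells, 7.51% (exact Clopper-Pearson 95% interval 6.00 to 9.26). At day 3, 150 of 798 cells reached it, 18.8%, a share that the rule fixes, so no interval is given for it. The day 3 limit was chosen to give 150 cells, and the day 5 library is shallower, with a median of 13549 UMIs per cell against 32063.5. With every cell thinned to 9000 UMIs, 121 day 5 cells and 0 day 3 cells were left out as too shallow, and the limit was set anew at the thinned score of the 150th day 3 cell, 0.265 in place of 0.281. The shares were then 7.94% (75 of 944) at day 5 and 19.0% (152 of 798) at day 3, and 117 of these 152 day 3 cells were S-entry cells.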

How the data were processed

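The authors deposited UMI counts per gene and cell and log2 values of the same cells, made with Cell Ranger 1.3.0 on mm10 per the submitters' processing notes. From the values, each deposited log2 value is the log2 of the UMI count over the cell's size factor plus 1 (to within 1e-10). How cells and genes were filtered is not given in the sources used here. Gene IDs were matched to symbols of GENCODE M21 (15681 of 15745 genes). Columns carry cell numbers and no barcodes, so shared barcodes could not be counted.

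The day 3 library held 28764033 UMIs in 798 cells and the day 5 library 17349076 in 1065. Cells were ranked by the score, UMIs were summed per group, and CPM, exact Poisson intervals and log2 ratios were computed in Python 3.11.15 with numpy 2.4.6, pandas 2.3.3 and scipy 1.17.1. TMM factors came from edgeR 4.0.16 in R 4.3.3. The counting rule was tested on simulated Poisson counts summed per group, the spread that its intervals assume. The simulation held no spread between cells, so it does not show how the rule behaves where a few cells hold many UMIs. No doublet caller was run. The members, the 26 gene lists and the alternatives were chosen with earlier results of these data known.

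Named genes are the 14 score genes, the 15 highest and 15 lowest by log2 ratio (at least 30 CPM in the higher group and 10 UMIs in the lower), the 3 highest and 2 lowest of each list, the 10 most like the first part and the 10 highest over the lowest-score cells. Other genes, such as Pcna, Rrm1, Cdkn1a, Lgr5, Clu, Mki67 and Ccnb2, were added after their values were seen. Not every gene that the rule takes is printed.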

Additional observations from a re-analysis of the deposited data

Results flagged for a closer look

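Among the genes tested at both days, 4 were called in opposite directions under the same rule. Mdm2, the ubiquitin ligase that removes p53, had 20.1 CPM (16.3 to 24.5) in S-entry cells and 30.4 CPM (28.2 to 32.7) in the other day 3 cells, a log2 ratio of -0.592. Without the other day 3 cell with the highest Mdm2 count, which held 5.91% of the UMIs of those cells, the log2 ratio was -0.51, under 1.5-fold. At day 5 it had 26.4 CPM (20.6 to 33.3) in the cells of the rule and 15.0 CPM (13.1 to 17.1) in the others, a log2 ratio of 0.822. Fzd7, a Wnt receptor, had 7.04 CPM in S-entry cells and 12.8 CPM in the other day 3 cells, a log2 ratio of -0.847, and at day 5 13.4 CPM in the cells of the rule and 7.23 CPM in the others, a log2 ratio of 0.902. Hpgd, which breaks down prostaglandins, had 8.49 CPM in S-entry cells and 4.596 CPM in the other day 3 cells, a log2 ratio of 0.897, and at day 5 16.7 CPM in the cells of the rule and 27.1 CPM in the others, a log2 ratio of -0.681. Defa30, a Paneth defensin of a family of near-identical genes, had 1.45 CPM in S-entry cells and 5.31 CPM in the other day 3 cells, a log2 ratio of -1.78, and 1 of the other cells held 52.0% of their UMIs, without which the log2 ratio was -0.73. At day 5 it had 738 CPM in the cells of the rule and 68.6 CPM in the others, a log2 ratio of 3.43. The share of single cells in the day 5 sums was not computed. The secretory list, which does not hold Defa30, had a median of 380 CPM per day 5 cell of the rule and a highest of 357371 CPM. The differences between the days were not tested, since each day is 1 library.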

How the results depend on the processing

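Each day is 1 library, so all values describe these libraries, and genes under 100 UMIs were not compared. No paired analysis was possible because each day has 1 sample and no numbers are shared by replicates. Counts of genes called past the fold moved by over 1.5 times under 4 settings. With each cell weighed alike and no interval rule, 262 genes were higher and 557 lower over the other day 3 cells, 676 and 602 over the lowest-score cells, and 1048 and 912 at day 5. With the first part of the score alone, 1001 and 763 were called over the lowest-scoring cells, and 1264 and 1118 at day 5; 115 of the 150 cells were then S-entry cells. With 200 cells taken, 218 genes were lower over the other day 3 cells. With cells thinned to the lowest total, 173 genes were higher over the lowest-score cells, and 127 of 150 cells were shared. The share of replication genes with an E2F motif was 11.1% for TTTCGCGC alone, in place of 29.6% for all 4 spellings. Of the values of single genes, 182 lay outside the counting interval of the reported ratio, and 102 list medians moved by over 0.1. A further 9 gene values changed sign. Ccn2 stood at -0.51 with 100 cells, -0.88 with the first part alone, -0.88 with thinned counts, -0.51 without Cdt1 in the score and -0.38 without Dtl. With 200 cells, Areg stood at 0.12, Ankrd1 at 0.80 and Trp53inp1 at 0.22. Lyz1 stood at -1.51 with the first part alone. The cause was not tested. The 122 other values of counts, shares and bands stayed within 1.5 times or within their intervals.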

Other observations

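Glycolysis genes had none of 13 tested past the fold between S-entry cells and the other day 3 cells, with log2 ratios from -0.49 for Pfkp, a phosphofructokinase, to 0.11 for Tpi1, triosephosphate isomerase. Genes induced by dissociation of tissue had none of 9 past the fold, from -0.48 for the heat shock gene Hspa1b to 0.13 for Fosb, while over the lowest-score cells 2 of the 9 were higher, with a median of 0.28. Notch receptors, ligands and targets had none of 5 past the fold, with Hes1, the main target in crypts, at 146 CPM in S-entry cells and 130 CPM in the others. No tuft cell gene reached 100 UMIs at day 3, and Il25 was not analysed here. Over the lowest-score cells, the secretory genes Zg16 and Defa24 had log2 ratios of 2.51 and 2.49, beside 0.42 and 0.43 over all other cells. Without the single cells given above they stood at 1.51 and 1.27 over the lowest-score cells and at -0.58 and -0.80 over all other cells.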
